A study of Drosophila melanogaster with 46 samples.

Results

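The Wnt interval studied here is a stretch of 150000 bp on chromosome arm 2L of Drosophila melanogaster, chosen around wg and the Wnt genes beside it. It was described through the accessible chromatin regions of the deposited count table that lie wholly inside it, which are 63 of the 30774 regions in all. They are numbered 1 to 63 along the arm and called members below. On the genome build dm3 the first starts at 7240413 and the last ends at 7388478. They were measured by ATAC-seq, where a transposase (Tn5) inserts sequencing adapters into open DNA, so the number of reads in a region measures how accessible its chromatin was. The tissue was the eye-antennal disc, the larval sheet of cells that forms the eye, the antenna and part of the head, dissected by hand from wandering third-instar larvae raised at 25 degrees on normal food. All libraries came from inbred strains of the DGRP (Drosophila Genetic Reference Panel), bred from flies of a wild population, with no transgene or treatment named in the labels of these libraries. The titles of 15 libraries end in IR and those of 16 do not, and the labels do not explain this suffix. Of the 23 lines, 8 had 1 library of each kind and 15 had a single library.

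Wnt proteins are secreted signals that bind Frizzled receptors with the co-receptor Arrow and stabilise Armadillo, the fly β-catenin, which then acts with the factor Pangolin on target genes. Wingless, the product of wg and the best studied Wnt of the fly, patterns segments and appendages. In this disc it is known for holding back the start of retinal differentiation from the disc margin and for patterning head cuticle and the ventral antenna. Wnt4 acts in cell movement and in the targeting of photoreceptor axons, Wnt6 is known for a part in maxillary palp growth, and Wnt10 is a less studied Wnt ligand. In the RefSeq gene table of the Release 6 assembly the genes along this stretch stand in the order CG13786, Wnt4, CG31909, wg, lncRNA:CR45304, Wnt6, Wnt10, asRNA:CR44063 and ninaC, the last being a myosin of photoreceptors. The 4 Wnt genes thus lie beside each other with 2 other genes among them, of which 1 codes for a protein. That assembly is not the build of the deposited regions, so members could not be assigned to a gene, promoter, exon, intron or UTR. They are named by position, and the state of single Wnt genes is not analysed here. For the same reason the eye-antennal identity of the tissue was not checked against marker genes.

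Library totals ranged from 1110755 to 12758783 counts over all regions, with a median of 6283136. The interval held between 0.149% and 0.214% of a library's counts, with a median of 0.172% and an SD of 0.0170 percentage points over the 31 libraries. The lowest share was that of replicate 1 of DGRP_28265 (exact 95% interval 0.146 to 0.152%) and the highest that of DGRP_28243 (0.211 to 0.217%), and these intervals cover counting error only. In the lines with 2 libraries the share was higher in the library with the IR suffix in 7 of 8. The exception was DGRP_28262 with 0.194% with the suffix and 0.209% without it. In DGRP_28260, DGRP_28275 and DGRP_55031 the exact 95% intervals of both libraries overlapped.

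The members resembled the other regions of the genome in size and level. Their median length was 408 bp, against 456 bp over all regions. Their median level was 3.74 log2 CPM, the same as over all regions. CPM are counts scaled to the library total after that total was multiplied by the library's TMM normalization factor. Per kb of region the median was 31.3 CPM over the members and 30.3 over all regions. Together the members covered 30597 bp of the interval, at 4.2 members per 10000 bp. Of the 62 gaps between neighbours, 19 were under 500 bp, and the longest, between members 62 and 63, was 9868 bp.

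Accessibility was concentrated in a few members. The highest level per kb was that of member 34 at 2L:7306736-7307324, which ranged from 142 to 366 CPM per kb with a median of 271.7 (mean 266.7 ± 60.7, SD, n = 31). Its mean lay 105 CPM per kb above that of member 37, the next in order, and it was the higher of both in 31 of 31 libraries. Member 37 at 2L:7319713-7321227, which is also the longest with 1515 bp, ranged from 97.5 to 258 CPM per kb with a mean of 161.7 ± 40.1. Member 48 at 2L:7354475-7355117 had 154.9 ± 41.7 and member 50 at 2L:7356471-7357371 had 131.8 ± 34.5 CPM per kb. The order of these 3 was not fixed: member 37 lay above member 48 in 20 of 31 libraries and member 48 above member 50 in 25. Member 45 at 2L:7339990-7340667 followed with 108.5 ± 27.7 CPM per kb and did not stand apart from member 38, which it exceeded in 16 of 31 libraries.

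Below that the levels formed a continuum. Of the 62 neighbours in the order of levels, member 34 over member 37 was the single pair whose upper member was higher in every library, and 60 pairs had means closer than 1 SD of their difference over libraries. The lowest levels per kb were those of member 3 at 2L:7243609-7243987 with 12.0 ± 9.66 CPM per kb, member 58 at 2L:7371713-7372002 with 12.4 ± 6.0 and member 30 at 2L:7298230-7298445 with 12.5 ± 5.36. Their ranges over libraries overlapped widely. In raw reads these low members rest on little: the counts of member 3 ran from 3 to 119 per library with a median of 20. Among the 63, 6 members were in the top 10% of all regions by CPM per kb.

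**Figure D1:**
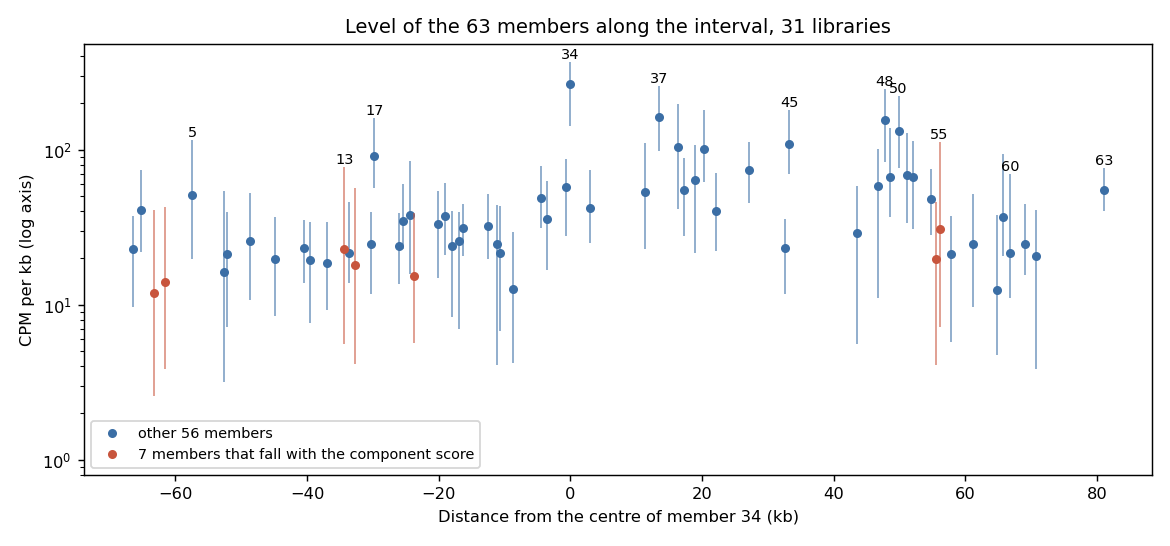
Level of each member (points, mean over 31 libraries; bars, lowest to highest library) in CPM per kb on a log axis, against the distance of its centre from the centre of member 34 in kb. Member 34 stands highest with 266.7 CPM per kb, members 37, 45, 48 and 50 lie on the side of higher coordinates, and the 7 members drawn in red (lower in libraries with a high component score) lie at 12.0 to 30.6 CPM per kb.

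Along the interval, counts gathered in 3 of the windows of 10000 bp. Each member was given to the window that holds its centre, and shares are of CPM summed over libraries. The window from 7320000 to 7330000 held 23.5% of the interval's counts with 6 members, and the window from 7350000 to 7360000 held 21.6% with 7 members. Another 12.9% fell between 7300000 and 7310000, the window of member 34. The window from 7310000 to 7320000 between them contained the centre of 1 member, with 0.779% of the counts, while the ends of members 35 and 37 reach into it. On the low-coordinate side, up to 7300000, no window held more than 5.85%.

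The spread over libraries was that of other regions. The SD of log2 CPM over 31 libraries had a median of 0.438 over the members and 0.456 over all regions, and the SD within lines had a median of 0.367 over the members and 0.415 over all regions. Member 63 at 2L:7387746-7388478 varied least, with an SD of 0.214. Member 18 at 2L:7280807-7281312 came next with an SD of 0.295. The 5 members that varied most were members 55, 13, 15, 3 and 4, with SDs of 1.23, 1.10, 1.04, 1.0 and 0.80.

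These 5 varied together. Member 55 at 2L:7362869-7363415 ranged from 2.09 log2 CPM in DGRP_25194 to 5.95 in DGRP_29651 with a median of 2.94. Member 13 at 2L:7272367-7273017 ranged from 1.97 in DGRP_25199 to 5.66 in DGRP_29651 with a median of 3.18, and member 15 at 2L:7274055-7274462 from 1.01 in DGRP_28222 to 4.56 in DGRP_29651 with a median of 2.01. The library of DGRP_29651 was the highest at each of these members, and replicate 1 of DGRP_55031 was the next highest at each. Member 3 ranged from 0.37 to 3.98 with a median of 1.65, and member 4 at 2L:7245365-7245655 from 0.52 to 3.66 with a median of 1.68, both again highest in DGRP_29651.

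This shared movement was described with a principal component analysis, which finds the direction along which the libraries differ most. It used the log2 CPM of the 15387 regions above the median level, and its first component held 40.0% of their variance. Scores on it ran from -69.7 in DGRP_29651 to 37.8 in replicate 2 of DGRP_25208, and their sign is arbitrary. The relation of a member to the score is a description with no test, because the score is itself made from the accessibility of the same libraries. With the regions of arm 2L left out of the component, the scores correlated with the first ones at r = 0.9999 and the counts below did not change.

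A fitted decline of at least 2-fold over the range of scores was found in 7 members, which is 11.1% of them, against 21.9% of all regions. The share in the interval was thus below that of the genome. The 7 were members 3, 4, 13, 15, 21, 54 and 55. Their fitted changes in log2 CPM over the range of scores were -3.74 for member 55, -3.36 for member 13, -3.08 for member 15, -2.93 for member 3, -2.28 for member 4 and -1.91 for both member 21 (2L:7283144-7283432) and member 54 (2L:7362404-7362764). The member just short of the 2-fold limit was member 20 at 2L:7282331-7282946 with -0.96. A fitted increase of at least 2-fold was found in 4 members, or 6.35%, against 4.12% of all regions. These were members 40, 28, 38 and 48 with 1.19, 1.13, 1.07 and 1.01, and member 46 lay just short of the limit with 0.996.

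Outside the 7, most members had higher fitted levels at high scores. Of the 63 members, 49 had a fitted increase and 14 a fitted decline. The median change was 0.48 log2 units over the members and 0.25, also positive, over all regions. The share of all regions with a fitted increase was not counted, so the 49 members cannot be set against it. When libraries were scaled by their totals alone, without TMM factors, the median change was 0.29 over the members and 0.07 over all regions, and 41 members had a fitted increase. Under that scaling 8 members declined at least 2-fold, among them the same 7, and 1 rose at least 2-fold. The matching shares of all regions were not counted under that scaling.

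**Figure D2:**
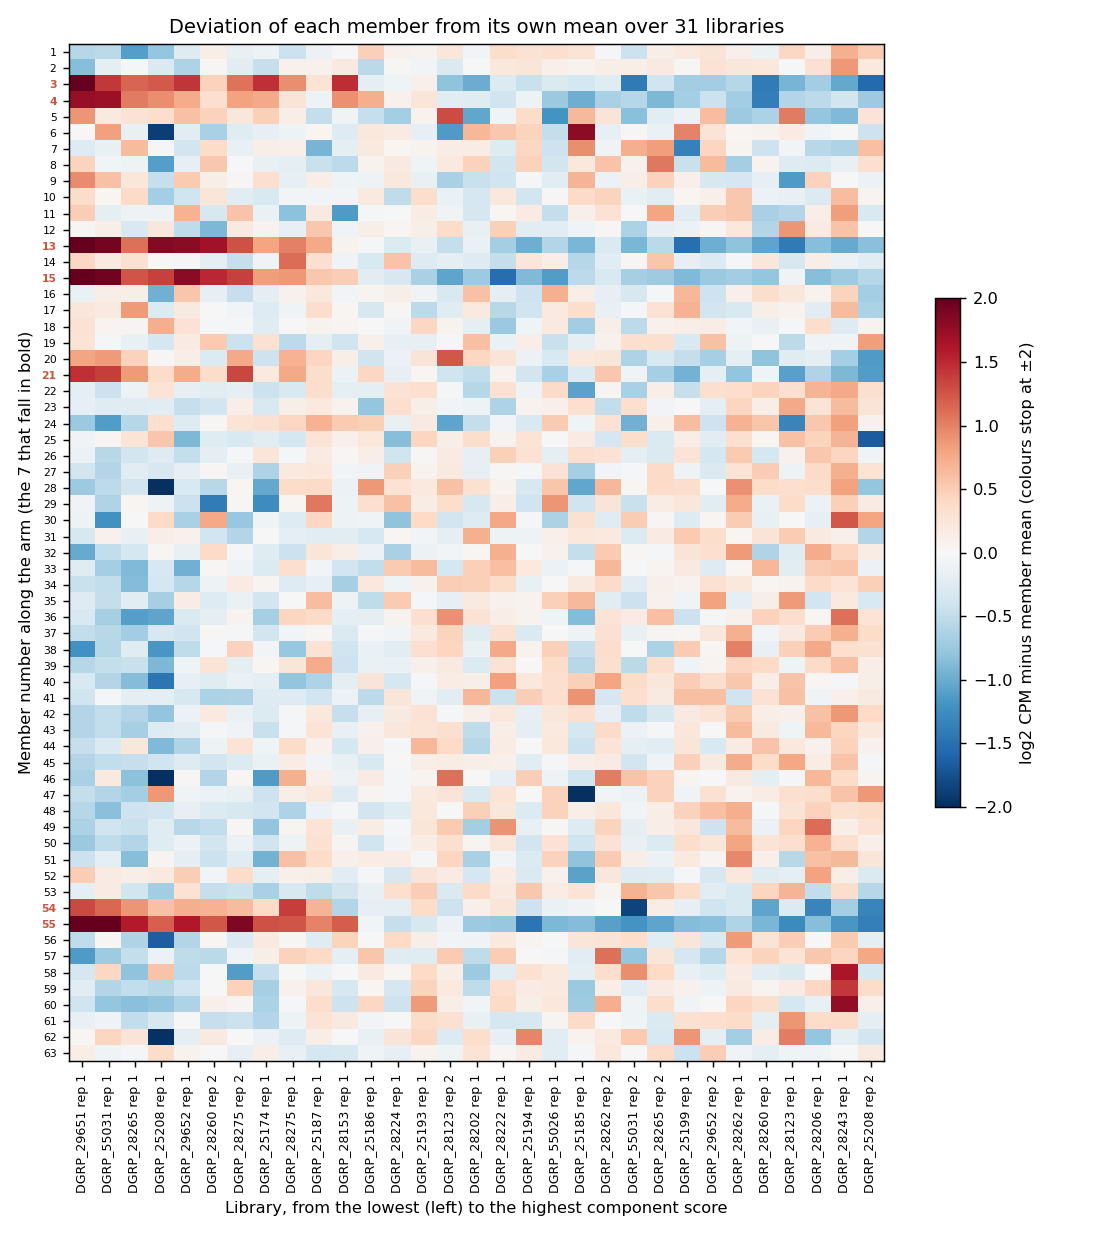
Deviation of the log2 CPM of each member (rows, in order along the arm) from its mean over 31 libraries (columns, from the lowest to the highest component score), with colours stopped at 2 log2 units. The rows of members 3, 4, 13, 15, 21, 54 and 55 are red on the left and blue on the right, while most other rows are faintly the reverse, and single cells such as member 47 in DGRP_25185 and members 58 to 60 in DGRP_28243 stand out.

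The correlation with the score over 31 libraries was r = -0.97 for member 55, -0.96 for member 13 and -0.94 for member 15, the 3 lowest. The 3 highest were those of member 48 (0.82), member 40 (0.75) and member 1 (0.74), and that of member 34 was 0.73. The Spearman correlations were -0.88, -0.92 and -0.72 for members 55, 13 and 15. The scores left their widest gap between -17.8 and -0.52, with 11 libraries below it and 20 above. On either side of that gap r was -0.79 below and -0.71 above for member 55, and -0.84 below and -0.74 above for member 13. For member 15 it was -0.88 below and -0.08 above, so it was near 0 within the 20 libraries of higher score. For the members of positive relation, r was 0.68 below and 0.60 above the gap for member 48, 0.66 below and 0.08 above for member 1, 0.33 below and 0.12 above for member 34, and 0.24 below and 0.13 above for member 40. Leaving out the libraries farthest from the median score (DGRP_29651 and replicate 1 of DGRP_55031) left r at -0.96 for member 55, -0.95 for member 13 and 0.76 for member 48.

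The suffix was unevenly spread over the scores: of the 11 libraries below the gap 3 carried IR in their title, and of the 20 above it 12 did. Within the 15 libraries with the suffix r ran from -0.96 to -0.63 over the 7 declining members, and within the 16 libraries without it from -0.98 to -0.85. The 7 members were chosen by their decline over both kinds of library together. Negative values within each kind follow largely from that choice and are no separate support. The 2 libraries of a line could lie far apart. In DGRP_55031 member 55 had 2.36 log2 CPM with the suffix and 5.81 without it, and in DGRP_28260 it had 4.80 with the suffix and 2.64 without it. The direction of the difference therefore varied between lines.

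**Figure D3:**
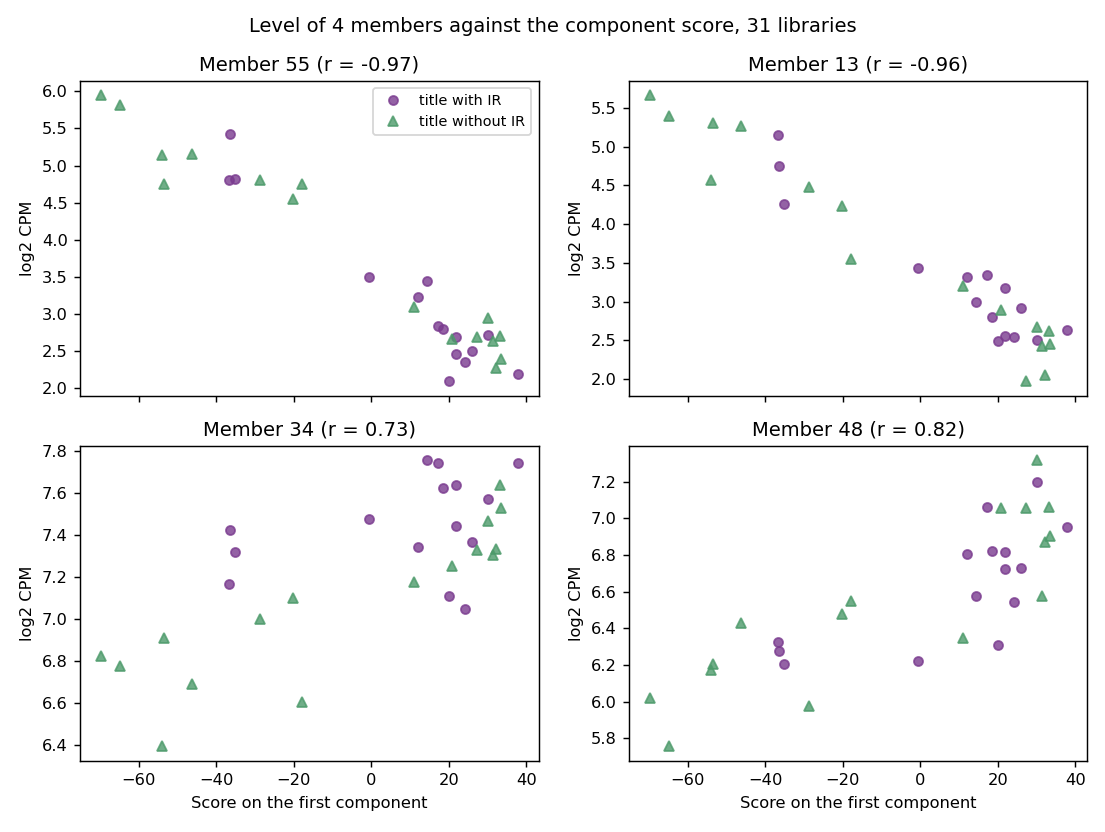
Log2 CPM of members 55, 13, 34 and 48 in each of 31 libraries against the library's score on the first component, with circles for titles with IR and triangles for titles without. Members 55 and 13 are low at high scores (r = -0.97 and -0.96), members 34 and 48 are high there (r = 0.73 and 0.82), and no library has a score between -17.8 and -0.52.

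The share of the interval's counts that fell in the 7 declining members ran from 1.01% in DGRP_28243 to 12.5% in DGRP_29651, with a median of 1.78%. These members lie in separate places: members 3 and 4 near the low-coordinate end, members 13, 15 and 21 further in, and members 54 and 55 beyond the windows of highest accessibility. None lies between 7290000 and 7360000, the part of the interval that holds most counts. The correlations among them over 31 libraries ran from 0.66 to 0.94 with a median of 0.83 over 21 pairs. With the component removed from each member, they ran from -0.20 to 0.27 with a median of 0.05. The 7 were chosen by their fit to the score in these same libraries, so both results follow largely from that choice.

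Neighbouring members were more alike than distant ones on average, and weakly so. Distances here are between the centres of members. Over pairs up to 1 kb apart the mean correlation across libraries was 0.33 (22 pairs). It was 0.15 at 1 to 5 kb, 0.14 at 5 to 20 kb, 0.09 at 20 to 50 kb and 0.03 beyond 50 kb (857 pairs). With the component removed the mean was 0.22 up to 1 kb and 0.06 beyond 50 kb. Pairs share members and libraries, so these means carry no test. Single pairs differed in kind. Members 59 (2L:7372521-7373173) and 60 (2L:7373327-7374294), with a gap of 153 bp between their edges, correlated at 0.86 and at 0.82 with the component removed. They correlated at 0.79 without DGRP_28243, the library in which both were highest. Members 54 and 55, with a gap of 104 bp between their edges, correlated at 0.76 and at 0.00 with the component removed.

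By the same measure, the regions most like member 34 lay on other arms. The 5 highest correlations were those of 2R:14560773-14561297 (r = 0.91), 3R:7694301-7695454 (0.90), 3R:20455607-20456817 (0.89), 3R:19118721-19119317 (0.89) and 3R:9700585-9701243 (0.88), over 31 libraries and 30774 regions. With the component removed these were between 0.75 and 0.81. Within the interval the members most like it were members 37 (0.76), 1 (0.72), 42 (0.65), 48 (0.64) and 40 (0.63), and with the component removed member 37 kept 0.50 and member 48 kept 0.13.

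The series compares lines, and the first test asked which members differ between the 23 lines. None of the 63 members passed the joint edgeR quasi-likelihood test of all lines at an adjusted p of 0.05, where 29 of 30773 tested regions did (0.0942%). At an unadjusted p under 0.05 there were 4 members (6.35%), against 7.68% of all regions. DESeq2 called 3 members, 49, 60 and 59, against 5.51% of all regions, and limma voom called 0, against 0.0325%. The estimate of spread has 7 residual degrees of freedom, which the 8 lines with a pair of libraries supply.

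With the score of that component as a covariate, 7 members passed, which is 11.1% of them, against 10.4% of all regions. The share of members was close to that background. The score is made from the counts of the same libraries, so the covariate is not independent of the tested values. It also takes 1 further residual degree of freedom. Both limits hold for the later fits with this covariate. Member 5 at 2L:7249360-7249836 had line means from 3.29 log2 CPM in DGRP_55026 to 5.66 in DGRP_28123 (edgeR adjusted p = 0.0030 with the covariate and 0.732 without it). Its libraries ranged from 3.29 to 5.79 with a median of 4.62, and both libraries of DGRP_28123, at 5.79 with the suffix and 5.53 without it, were above those of all other lines. Member 49 at 2L:7355321-7356010 had line means from 4.68 in DGRP_25174 to 6.57 in DGRP_28206 (edgeR adjusted p = 0.0083 with the covariate and 0.292 without it). Its highest libraries were those of DGRP_28206 at 6.57 and DGRP_28222 at 6.36.

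The other 5 were members 60, 59, 41, 17 and 24, with edgeR adjusted p of 0.0033, 0.0235, 0.0415, 0.0434 and 0.0470 with the covariate and between 0.333 and 0.989 without it. Member 24 at 2L:7288872-7289174 was lowest in DGRP_28123, with a line mean of 1.64 log2 CPM, and highest in DGRP_28243 with 3.64. Member 41 at 2L:7327092-7327724 had line means from 5.41 in DGRP_25186 to 6.83 in DGRP_25185. Member 17 at 2L:7276973-7277527 ranged in its libraries from 4.98 to 6.47 with a median of 5.63.

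Each line was then set against the mean of the other 22. Over all lines and members 2 of 1449 tests passed, or 0.138%, against 0.139% over all regions and lines. At an unadjusted p under 0.05 there were 90 tests of members (6.21%), against 5.19% over all regions, and in DGRP_28243 there were 14 of 63 members (22.2%), against 7.57% of all regions. The first was member 60 in DGRP_28243. It had 517 reads and 6.07 log2 CPM in the single library of that line, against line means from 3.59 to 5.15 in the other lines, with a mean of 4.25. That library lay above every other library. The fitted difference was 2.08 log2 units (edgeR adjusted p = 0.0377, where 0.0617% of all regions passed in this line). Member 59, its neighbour, was also highest in that library, at 5.95 log2 CPM against 3.79 to 4.98 in the other lines, and passed with the component as a covariate (1.44, edgeR adjusted p = 0.0029).

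The second was member 47 at 2L:7353659-7353996 in DGRP_25185. It had 14 reads and 2.01 log2 CPM in the single library of that line, against line means from 3.76 to 5.10 in the other lines, with a mean of 4.30. That library lay below every other library. The fitted difference was -2.47 (edgeR adjusted p = 0.0415, where 0.907% of all regions passed in this line). The DNA sequence of the line was not analysed here. Member 48, whose start lies 478 bp beyond the end of member 47, had 6.73 log2 CPM in that library, within the range of 5.76 to 7.32 over all libraries.

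Both lines have 1 library, so their test borrows the spread of the lines with 2 and has no replicate of its own. The sizes held when single libraries of the 8 lines were left out, at 2.02 to 2.16 for member 60 and -2.51 to -2.36 for member 47. Their calls did not hold. Adjusted p ranged from 0.0154 to 0.0869 for member 60 and from 0.0183 to 0.0817 for member 47. Neither was called without either library of DGRP_25208, DGRP_28123, DGRP_28262, DGRP_28275, DGRP_29652 or DGRP_55031. Without replicate 1 of DGRP_28265 member 47 was called and member 60 was not. Over regions with a mean count of at least 50 the calls were members 60 and 59 in DGRP_28243, 2 of 966 tests, against 0.127% over all such regions and lines.

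With the component as a covariate 15 tests of a line against the others passed, or 1.04%, against 1.14% over all regions and lines. They include both calls above and fall in 6 lines. In DGRP_25185 there were 5 members (7.94%), against 4.79% of all regions in that line. Beside member 47 these were member 6, higher at 3.90 log2 CPM where the other lines lay between 0.96 and 3.11 (edgeR adjusted p = 0.0052), member 41, higher at 6.83, member 52, lower at 4.43 where the others lay between 5.14 and 6.30 (edgeR adjusted p = 0.0251), and member 60, lower at 3.59. In DGRP_28123, which has 2 libraries, there were 4 members (6.35%), against 3.11% of all regions. Member 5 was higher there, at 5.66 against 3.29 to 5.37 elsewhere. Member 24 was lower, at 1.64 against 1.79 to 3.64 elsewhere (edgeR adjusted p = 0.0092). The others in that line were member 20, higher by 0.94 log2 units in the fit, and member 9, lower with a difference of -0.89. At member 20 the 2 libraries of the line were far apart. With the component removed, replicate 1 was at 4.50 log2 CPM and replicate 2 at 5.83.

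The remaining calls with the covariate were few. DGRP_28243 had members 60 and 59, against 1% of all regions. DGRP_28262 had member 32, higher by 0.79, and member 41, with a difference of -0.65, against 2.63% of all regions. DGRP_25208 had member 47, higher by 0.98, against 1.49%, and DGRP_28222 had member 49, higher by 0.86, against 0.484%. Member 47 thus stood at opposite ends in DGRP_25185 and DGRP_25208, at 2.01 and 5.10 log2 CPM, and both libraries of DGRP_25208 were above those of all other lines.

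**Figure D4:**
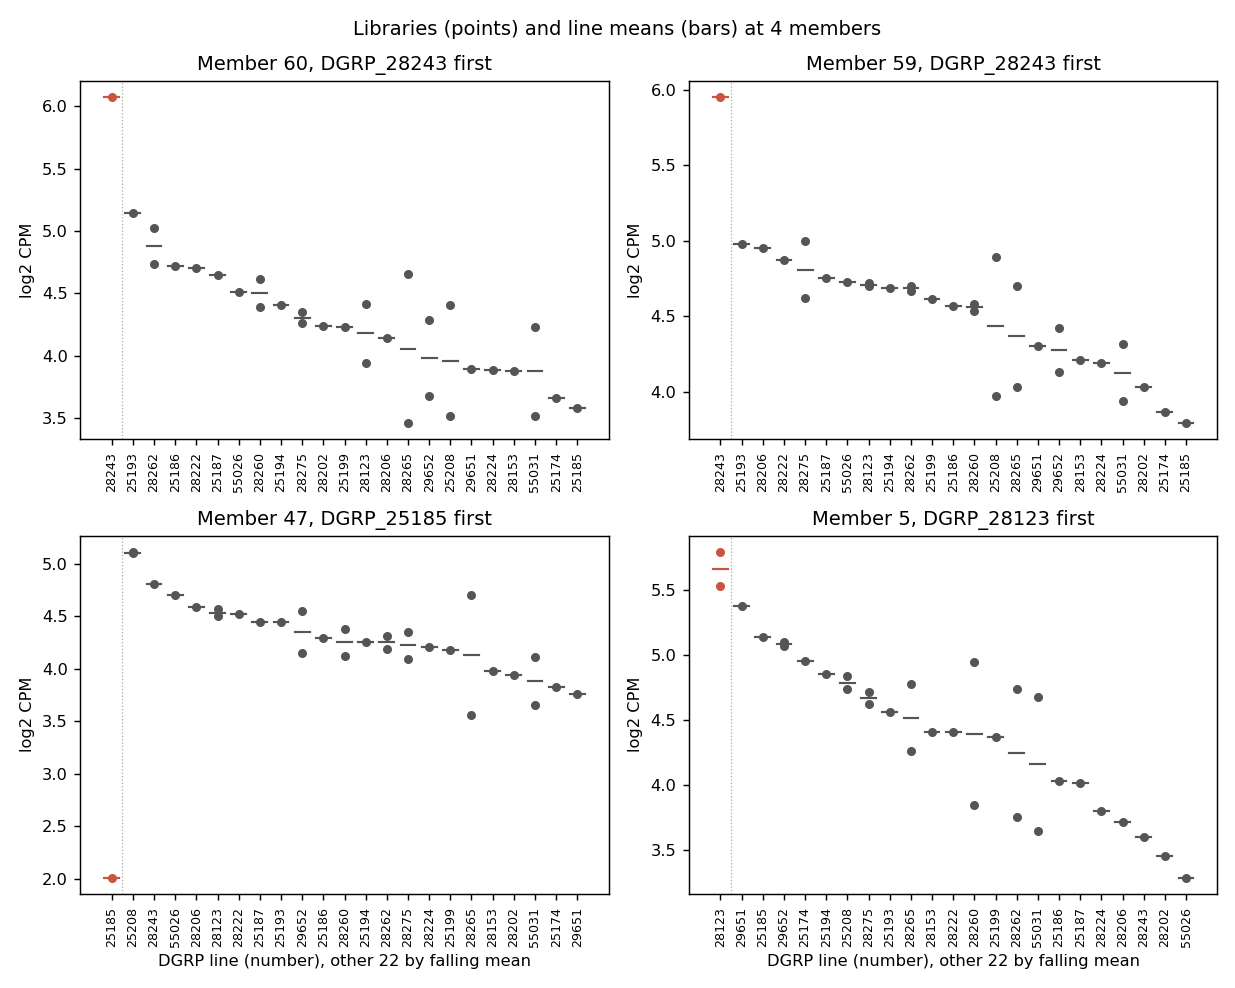
Log2 CPM of members 60, 59, 47 and 5 in each library (points) with line means (bars), with the line of the described call first in red and the other 22 lines by falling mean. DGRP_28243 stands at 6.07 and 5.95 at members 60 and 59, DGRP_25185 at 2.01 at member 47 and DGRP_28123 at a mean of 5.66 at member 5, each beyond all other lines.

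The last comparison set the library with the IR suffix against the library without it in the 8 lines that have both. None of the 63 members passed the edgeR quasi-likelihood test with the line as a block, where 9 of 30710 regions did (0.0293%). At an unadjusted p under 0.05 there were 7 members (11.1%), against 17% of all regions. DESeq2 gave an adjusted p to 45 of the members and called 1, member 34, against 4.85% of the 22970 regions to which it gave one, and limma voom called 0, against 0.0293%. In all 31 libraries with no term for the line 5 members passed edgeR's test, among them members 34, 8 and 19, against 12% of all regions.

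Member 34 had the smallest p. It ranged from 7.05 to 7.75 log2 CPM with a median of 7.50 in the libraries with the suffix, against 6.39 to 7.46 with a median of 6.95 in those without it. It was higher with the suffix in 7 of 8 lines, the exception being DGRP_28260, and the fitted difference was 0.45 (edgeR adjusted p = 0.144). Member 8 at 2L:7258176-7258416 was higher with the suffix in 8 of 8 lines, at 2.64 to 3.69 with the suffix against 1.53 to 2.70 without it, and member 19 at 2L:7281509-7281800 was too, at 2.90 to 4.16 against 2.81 to 3.50. Their fitted differences were 0.71 and 0.42 (edgeR adjusted p = 0.168 and 0.230). Member 60 was higher with the suffix in 7 of 8 lines, with a difference of 0.47 (edgeR adjusted p = 0.205). It was at 4.23 to 5.02 with the suffix against 3.46 to 4.73 without it. Member 16 at 2L:7276625-7276916 had a difference of -0.48 (edgeR adjusted p = 0.246), at 2.19 to 2.84 with the suffix against 1.90 to 3.43 without it, and was lower with the suffix in all lines but DGRP_25208. The groups overlapped at each of these members. With the component score as a covariate 1 member passed, or 1.59% of members against 4.39% of all regions. It was member 45, with a difference of -0.37 (edgeR adjusted p = 0.0373). Without the covariate its difference was -0.18 (edgeR adjusted p = 0.512), and it was higher with the suffix in 4 of 8 lines.

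**Figure D5:**
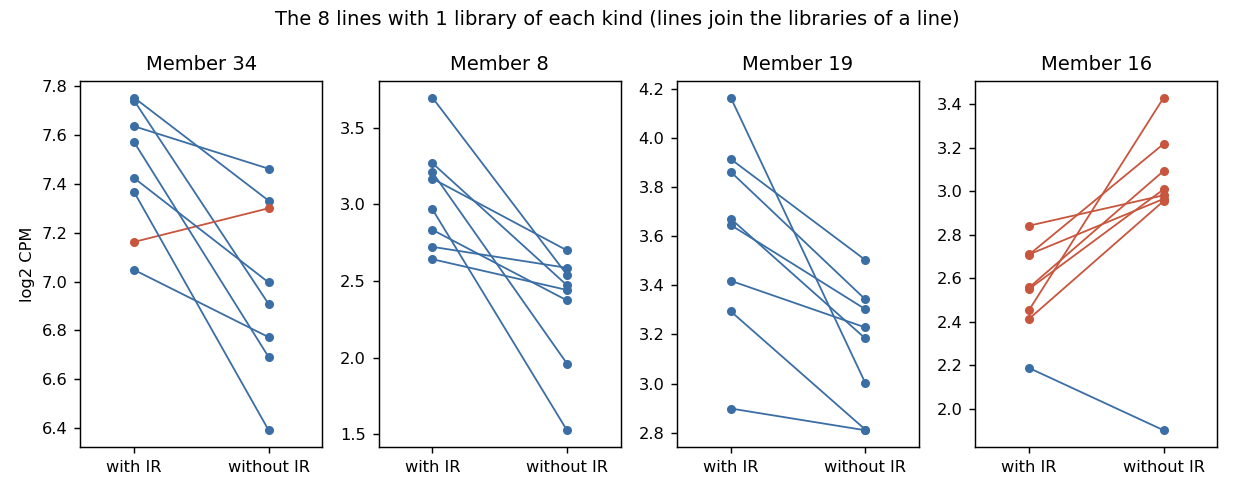
Log2 CPM of members 34, 8, 19 and 16 in the library with the IR suffix (left) and the library without it (right) of 8 lines, with a line joining both libraries of a DGRP line. Blue marks DGRP lines that are higher with the suffix and red those that are lower; members 8 and 19 are higher in 8 of 8 lines, member 34 in 7 and member 16 in 1.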

How the data were processed

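Accessibility was measured by ATAC-seq in 31 libraries. The authors deposited counts that were not normalized, as 1 table with a column per library over a merged peak set. The build dm3 and the tools DESeq2, featureCounts, MACS2 and Bowtie2 stand in the submitters' processing notes with no versions. How duplicate reads, reads with several matches and the offset of Tn5 insertion were handled is not given in the sources. Each can move counts in repeats or at region edges. The other 15 of the 46 samples of the series are not analysed here.

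Samples were grouped by the line and the suffix in their titles, and the shared line name pairs the 2 libraries of a line. Whether both stem from separate dissections is not in the labels. P-values therefore reflect the spread between libraries, which may be technical. Chi-square per degree of freedom between the counts of a line's 2 libraries ran from 8.86 to 29.6, so both were kept.

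The whole table was fitted with edgeR 4.0.16 (R 4.3.3). A region was tested if it reached the CPM of 10 counts at the median library in at least 2 libraries. The fits used TMM factors, robust quasi-likelihood F-tests and Benjamini-Hochberg adjustment over all tested regions, at 0.05. The test between lines had a term for the suffix and the test of the suffix the line as a block, each with 7 residual degrees of freedom. P-values of a line against the others are adjusted over regions within that line. CPM values used the TMM factors too, except where library totals only are named, and log2 CPM carries a prior count of 2. DESeq2 1.42.0 and limma 3.58.1 (voom) were alternatives. Shares carry exact Clopper-Pearson intervals.

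Named members were taken by rule: the 5 highest and 3 lowest per kb, the 5 largest and 2 smallest SDs, the 5 smallest p and the called members of each comparison, the longest, and the 3 extreme correlations with the component on each side. Members just outside a limit and neighbours of named members were added after their values were seen. The interval, the members and the lists were chosen with earlier results of these data known.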

Additional observations from a re-analysis of the deposited data

Results flagged for a closer look

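In the 8 lines with 2 libraries, 1 library stood apart from the other 7 of its kind in 4 of 56 sets. Chance alone sets apart about 1 in 20 where sets are independent and not chosen from the data. The sets were the log2 CPM of the 27 named members and the interval's share of counts, each by kind of library. They share libraries, and the members were named largely from these same values, so their number cannot be set against that rate. Member 18 was at 3.08 in replicate 2 of DGRP_55031 among the libraries with the suffix, below the next at 3.57 and a median of 3.67. Among the libraries without it, replicate 1 of DGRP_25208, the shallowest library, held member 63 at 5.69, above the next at 5.39, and member 16 at 1.90, below the next at 2.96. Replicate 1 of DGRP_28265 held member 17 at 6.47, above the next at 5.81.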

How the results depend on the processing

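Between lines the count of members called was 3 by DESeq2, 7 with the component as a covariate and 0 under the other alternatives. Those include the fit of the 16 libraries of 8 lines with a term for the suffix (0, against 1.16% of all tested regions). They also include each fit without 1 library (0 to 0, against 0 to 0.133%). The remaining fits between lines called from 0 to 0.28% of all tested regions. For the suffix it was 1 by DESeq2, 1 with the component and 5 in 31 libraries without the line term. It was 0 otherwise, also in the 16 libraries without the line as a block, where the pairing is ignored (0, against 0.462%). Without each line it was 0 to 0, against 0.00326 to 0.00978%. The remaining fits of the suffix called from 0.00326 to 0.118% of all tested regions. At shares this low, counts of 0 are not a result about the interval. For a line against the others it was 15 with the component and 2 where the mean count was at least 50. It changed between the fits without 1 library, an alternative chosen after seeing the data, and no share over all regions was counted there. The median correlation of members with the component was 0.37, and 0.24 with library totals only. The cause of these changes was not tested. The median level stayed between 3.72 and 3.75 log2 CPM. In the tests between lines and of the suffix no member was called, so none could be lost. Under the alternatives 106 of 121 values of named members stayed short of the threshold and 15 passed it. With the component as a covariate the suffix difference turned its sign at members 4, 13, 47, 49 and 55. At member 13 it was -0.78 without the covariate and 0.26 with it, and at member 4 it was -0.62 and 0.16. Members 34, 8, 19, 16 and 45 kept their sign in that fit. Against the other lines, member 60 stayed called in 3 and member 47 in 4 of 16 fits without 1 library. Members with few reads, such as member 3, carry the widest counting error, and 7 residual degrees of freedom limit both tests.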
